A study of Mus musculus with 8 samples.

Results

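This account follows 10 genes of the replicative helicase and of origin licensing, Mcm2, Mcm3, Mcm4, Mcm5, Mcm6, Mcm7, Mcm10, Cdc6, Cdt1 and Gins1, through the RNA sequencing of wild type (WT) and Hira-null mouse embryonic stem cells (mESCs). Members were taken by gene name from the 24419 gene names of a table of 24421 rows, all 10 were found, and all 10 were among the 14337 genes tested. HIRA is a histone chaperone that places the variant H3.3 in chromatin independently of DNA replication. The libraries came from differentiated Hira-null cultures at day 15, differentiated WT cultures at day 15, undifferentiated Hira-null mESCs at day 0 and undifferentiated WT mESCs at day 0, with 2 in each of the 4 groups and 8 in all. The Hira-null cells are Clone 104, a single clone, and the WT cells are the W9.5 line, so clone and genotype cannot be told apart. All cells carried HA-tagged H3.3, were kept in LIF at day 0, and were differentiated without LIF through embryoid bodies made in hanging drops, which gave cultures with beating areas at day 15. The labels call the day 15 cultures cardiomyocytes. The 2 libraries of a group are separate biological samples.

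The genes encode the machinery that prepares DNA for a single round of copying. In G1 phase the origin recognition complex (ORC) binds DNA, CDC6 joins it, and CDT1 brings in the ring made of the MCM2 to MCM7 subunits, which is the motor of the replicative helicase. This step is called licensing, and geminin, the product of Gmnn, blocks CDT1 after S phase has begun so that an origin is not licensed again. Kinases, CDC45 and the GINS complex, of which GINS1 is a subunit, then turn the loaded ring into a working helicase, and MCM10 takes part in its activation. Embryonic stem cells divide quickly with a short G1 phase and are rich in MCM proteins. E2F transcription factors are known to drive many of these genes when cells commit to S phase.

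Part of what the members share can be read in their promoters. RefSeq promoter windows of 300 bases (250 before and 50 after a start site, GRCm38.p6) were available for 8 members in 9 windows. An E2F-type word (TTTCCCGC, TTTCGCGC, TTTGCCGC or TTTGGCGC, on either strand) stood in 6 of the 9 windows (66.7%), against 744 of 32851 windows of all genes (2.3%). These were the windows of Mcm3, Mcm5, Mcm6, Cdc6 and Cdt1 and the first of the pair for Mcm7. The following stretches of 30 bases show 1 such word for each gene, in capitals, because they are a sequence feature that most of the windows share and that the choice of members did not use. Each was located on the NCBIM37 (mm9) genome and is printed along the strand of its gene. Positions after the stretches count from the RefSeq start site.
Mcm3: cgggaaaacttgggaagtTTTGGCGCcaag
Mcm5: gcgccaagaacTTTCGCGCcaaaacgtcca
Mcm6: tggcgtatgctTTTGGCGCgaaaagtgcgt
Mcm7: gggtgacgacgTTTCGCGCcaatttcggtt
Cdc6: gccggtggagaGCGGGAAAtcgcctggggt
Cdt1: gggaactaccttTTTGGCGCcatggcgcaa

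The Mcm3 stretch lies at chr1:20810344-20810373 on the minus strand, with its word beginning at base 39. That of Mcm5 is at chr8:77633244-77633273 on the plus strand, at base -153, where a word on the other strand overlaps it, as is also the case for Mcm6. The Mcm6 stretch is at chr1:130256374-130256403 on the minus strand, at base -110. For Mcm7 it is chr5:138613077-138613106 on the minus strand, at base 17. The Cdc6 word reads on the opposite strand of the gene, at chr11:98769316-98769345 and base -138, and that of Cdt1 is at chr8:125091935-125091964 on the plus strand, at base 33. The windows of Mcm2 and Mcm10 and the second of Mcm7 held none of the 4 words. The word CCAAT was present in 7 of the 9 windows (77.8%), against 37.4% of all windows, and was missing from those of Cdc6 and Cdt1. Other lists of the pathway also held the E2F-type words more often than all windows did, in 9 of 31 windows for replication fork genes, 2 of 9 for ORC genes and 2 of 9 for helicase activation genes (22.2% for each of the last pair). Of the 21 windows of mitosis genes, 9.5% held such a word and 85.7% held CCAAT. A match describes these letters alone and is not a bound site.

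The values are FPKM, that is, fragments per kilobase of gene scaled to the size of the library, as deposited by the authors. Each library held 6895826 to 11086294 fragments in genes, and a member was covered by 117 fragments (Gins1, WT day 15 replicate 1) to 5887 fragments (Mcm5, WT day 0 replicate 2). Differences were tested with limma on log2(FPKM + 1) over all genes tested, and a difference is called where the Benjamini-Hochberg adjusted p is 0.05 or less. A fold change on this scale understates the change of a gene at low FPKM. Hira stood at 16.7 and 19.8 FPKM in the Hira-null libraries at day 15, against 15.8 and 15.5 FPKM in WT, and at 12.4 and 11.4 FPKM in the Hira-null libraries at day 0, against 27.3 and 28.5 FPKM in WT. Its log2 fold change was -1.17 at day 0 (adjusted p = 8.5e-05) and 0.20 at day 15 (adjusted p = 0.17), so it was lower in mESCs and not lower in the differentiated cultures, and directions at day 15 are those of the libraries labelled Hira-null.

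Markers of several cell types also differed between the genotypes at day 15, where 18.8% of all genes tested were called lower in Hira-null and 18.6% higher. Between day 0 and day 15, 37.5% of all genes tested were called higher in Hira-null and 36.1% in WT. Of 15 cardiomyocyte markers, 13 rose and 1 fell between these days in the libraries labelled Hira-null, and all 15 rose in WT. At day 15 their summed level was 199 to 203 FPKM in Hira-null and 292 to 307 FPKM in WT, with 5 lower in Hira-null (2 without either WT day 15 library) and 1 higher (2 without any 1 of the day 0 libraries). They went both ways. Myl7 had the highest level of them in WT, at 68.9 and 64.9 FPKM, against 12.4 and 11.9 FPKM in Hira-null. Tnnt2 had the highest in Hira-null, at 57.8 and 59.7 FPKM, against 38.9 and 41.0 FPKM in WT. Myh6, a cardiac myosin, was at 26.6 and 30.3 FPKM in Hira-null and 42.6 and 41.8 FPKM in WT, while Nppa, an atrial peptide hormone and the marker called higher, was at 4.87 and 5.20 FPKM in Hira-null and 0.384 and 0.721 FPKM in WT. Neural progenitor markers summed to 484 to 488 FPKM in Hira-null, against 189 to 197 FPKM in WT (7 of 10 higher, 4 without either WT day 15 library). Of this, Fabp7 alone held 218.0 and 180.2 FPKM in Hira-null and 46.2 and 40.1 FPKM in WT. Neuron markers summed to 296 to 303 FPKM in Hira-null, against 128 to 130 FPKM in WT (9 of 10 higher). Endothelial markers summed to 22.2 to 24.6 FPKM in Hira-null and 55.2 to 56.5 FPKM in WT (7 of 9 tested lower, 4 without either WT day 15 library), and visceral endoderm markers to 30.5 to 31.7 FPKM in Hira-null and 150.5 to 155.3 FPKM in WT (8 of 10 lower and 1 higher). Of the visceral endoderm sum, Foxa2, the marker called higher, held 23.0 and 25.0 FPKM in Hira-null and 12.4 and 11.4 FPKM in WT. None of these markers was at 0 in both libraries of a day 15 group. Some were also high in mESCs. At day 0 the endothelial sum was 88.9 to 93.0 FPKM in Hira-null and 79.5 to 85.3 FPKM in WT. Pecam1 alone was at 61.2 and 65.6 FPKM there in Hira-null and 54.6 and 58.2 FPKM in WT. The neuron sum at day 0 was 241 to 251 FPKM in Hira-null and 220 to 226 FPKM in WT. Of this, Stmn2 held 181.8 and 187.8 FPKM in Hira-null and 146.4 and 144.8 FPKM in WT. At day 15 pluripotency genes went both ways, with 7 of 18 higher (4 without WT day 15 replicate 1), 6 lower and a median log2 fold change of 0.03. Pou5f1 was at 138.6 and 149.5 FPKM in Hira-null and 86.2 and 77.8 FPKM in WT, and Nanog at 21.4 and 22.5 FPKM in Hira-null and 35.1 and 33.5 FPKM in WT. Their sum was 835 to 838 FPKM in Hira-null and 668 to 714 FPKM in WT, so neither set of day 15 cultures was free of their RNA. The part of these cell types in the differences that follow was not tested, and in bulk RNA fewer cells of a type cannot be told apart from less RNA per cell.

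All 10 members were lower at day 15 than at day 0 in both genotypes. The summed FPKM of Mcm2 to Mcm7 was 281.8 and 303.2 in Hira-null libraries of day 15, against 1000.7 and 996.5 in those of day 0. The WT libraries of day 15 summed to 384.4 and 357.3 FPKM, against 1009.9 and 987.3 FPKM in those of day 0. Day 15 thus held 0.293 of the day 0 sum in Hira-null and 0.371 in WT. Every member was called lower, 10 of 10 in Hira-null and 10 of 10 in WT, where 36.4% of all genes tested were called lower and 37.5% higher in Hira-null, and 33.4% lower and 36.1% higher in WT. All 10 also fell by a fold of 2 or more in both genotypes, as did 17.9% of all genes tested in Hira-null and 12.4% in WT. The median log2 difference of the members was -1.74 in Hira-null and -1.39 in WT, beside 0.01 and 0.03 over all genes tested.

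**Figure D1:**
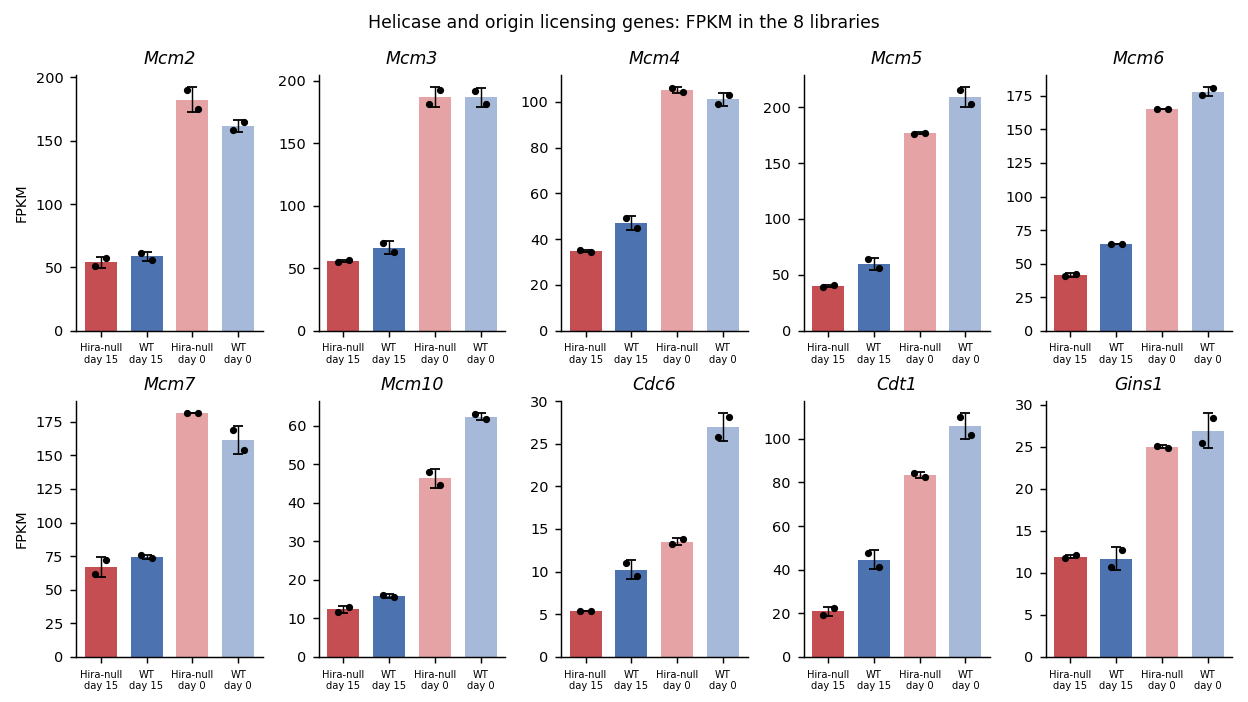
FPKM of the 10 members by group, with the libraries labelled Hira-null left of WT at each day. Bars are means of 2 libraries, error bars are SD and points are single libraries; every member stands lower at day 15 than at day 0 in both genotypes, as for Mcm5 with 39.1 and 40.8 FPKM at day 15 and 176.2 and 177.3 FPKM at day 0 in Hira-null.

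The size of this fall differed between members. Mcm5 had the largest in Hira-null, with 39.1 and 40.8 FPKM at day 15 against 176.2 and 177.3 FPKM at day 0 (log2 difference -2.12 ± 0.08, standard error, adjusted p = 6.5e-08). In WT it was Mcm10, with 16.1 and 15.5 FPKM at day 15 against 63.0 and 61.7 FPKM at day 0 (-1.91 ± 0.09, adjusted p = 2.9e-07). The smallest falls were those of Gins1 in Hira-null (-1.01 ± 0.11, adjusted p = 2.7e-05) and of Mcm4 in WT (-1.08 ± 0.07, adjusted p = 2.1e-06). Gins1 held 11.8 and 12.1 FPKM at day 15 and 25.1 and 24.8 FPKM at day 0 in Hira-null, without overlap. The share of all genes tested whose days did not overlap was not counted.

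Between genotypes at day 15, 7 of the 10 members were lower in the libraries labelled Hira-null and none was higher, where 18.8% of all genes tested were called lower and 18.6% higher. They were Cdt1, Cdc6, Mcm6, Mcm5, Mcm4, Mcm10 and Mcm3, while Mcm2, Mcm7 and Gins1 did not pass the test. The median log2 fold change of the members was -0.38, beside 0.01 over all genes tested. With 1 library left out the count ran from 5 to 7. Only Cdt1 passed a fold of 2, a bound that 4.08% of all genes tested passed in the lower direction.

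Cdt1 and Cdc6, which load the ring onto DNA, differed most. Cdt1 was at 19.4 and 22.2 FPKM in Hira-null and at 47.7 and 41.4 FPKM in WT at day 15, so that the lowest WT library lay well above the highest Hira-null library (log2 fold change -1.06 ± 0.10, a 2.09-fold lower level, adjusted p = 0.00011). Cdc6 was at 5.37 and 5.41 FPKM in Hira-null and at 11.0 and 9.44 FPKM in WT, again without overlap (-0.81 ± 0.11, 1.75-fold lower, adjusted p = 0.00081). Cdc6 had the lowest level per length of the members in 6 of the 8 libraries, and Gins1 had the lowest in replicate 1 of WT at both days (10.7 FPKM at day 15 and 25.4 FPKM at day 0, where Cdc6 was at 11.0 and 25.8 FPKM).

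The subunits of the ring differed among themselves at day 15. Mcm6 was at 40.4 and 42.5 FPKM in Hira-null, against 64.4 and 64.3 FPKM in WT (-0.62 ± 0.06, adjusted p = 0.00017). Mcm5 was at 39.1 and 40.8 FPKM in Hira-null, against 63.7 and 56.1 FPKM in WT (-0.57 ± 0.08, adjusted p = 0.00075). Mcm4 followed with 35.1 and 34.4 FPKM in Hira-null and 49.3 and 45.0 FPKM in WT (-0.43 ± 0.07, adjusted p = 0.0021). For these 3 subunits the call held with any 1 library left out. Their genotypes did not overlap, but neither did those of Mcm3 and Mcm7. The share of all genes tested without such overlap was not counted.

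The other ring subunits lay closer together. Mcm3 was at 54.9 and 56.3 FPKM in Hira-null and 70.2 and 62.6 FPKM in WT (-0.25 ± 0.08, adjusted p = 0.032), a call lost without WT day 15 replicate 1 (adjusted p = 0.23) and without either Hira-null day 15 library (0.081 without replicate 1 and 0.055 without replicate 2). Mcm2, which also binds histones, had 50.6 and 57.1 FPKM in Hira-null and 61.2 and 55.9 FPKM in WT, with overlapping groups (-0.12 ± 0.08, adjusted p = 0.30). Mcm7 had 61.5 and 72.04 FPKM in Hira-null and 75.5 and 73.4 FPKM in WT (-0.16 ± 0.09, adjusted p = 0.18), and passed the test without Hira-null day 15 replicate 2 (-0.27, adjusted p = 0.029). Mcm7 shares exons with Ap4m1 and Cops6 on the other strand and with the microRNA genes Mir25 and Mir93 on its own strand, and no source used here says if the counting took account of strand, so its fragments cannot be told apart from theirs.

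Of the genes of helicase activation, Mcm10 was called and Gins1 was not. Mcm10 was at 11.8 and 13.1 FPKM in Hira-null and 16.1 and 15.5 FPKM in WT at day 15 (-0.33 ± 0.09, adjusted p = 0.017). That call was lost without either WT day 15 library (adjusted p = 0.12 without replicate 1 and 0.078 without replicate 2) and without Hira-null day 15 replicate 1 (0.058). Gins1 was at 11.8 and 12.1 FPKM in Hira-null and 10.7 and 12.7 FPKM in WT, with the Hira-null libraries inside the WT range (0.03 ± 0.11, adjusted p = 0.84).

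**Figure D2:**
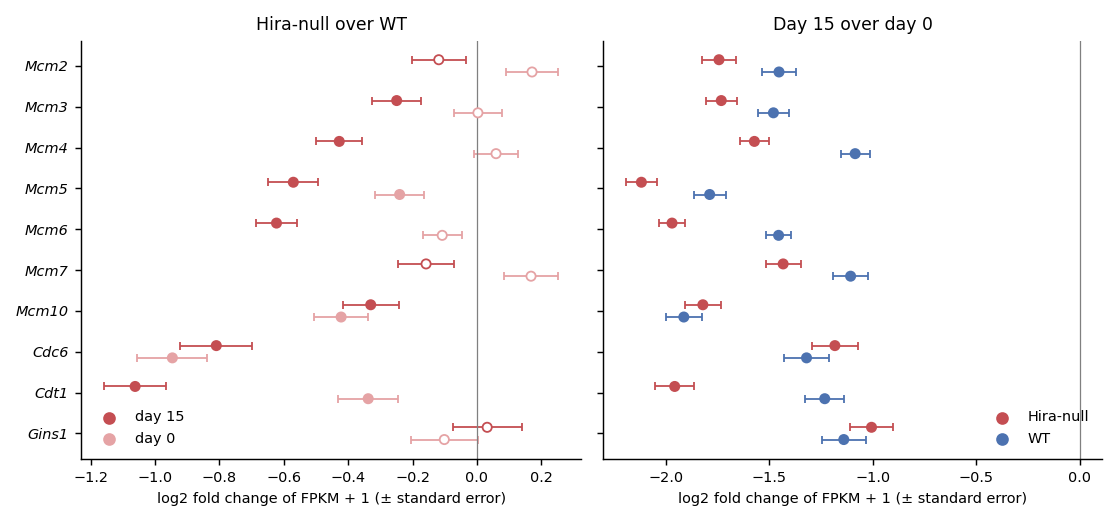
Left, log2 fold change of Hira-null over WT for each member at day 15 and day 0; right, log2 difference of day 15 over day 0 in Hira-null and WT, all on FPKM + 1. Bars are standard errors of the limma fit over 8 libraries and filled circles passed the adjusted p of 0.05; in the left panel Cdt1 at day 15 lies farthest to the left at -1.06 and Gins1 at day 15 sits at 0.03.

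At day 0, 4 of the 10 members were lower in Hira-null mESCs and none was higher, where 19.4% of all genes tested were called lower and 20.8% higher. They were Cdc6, Mcm10, Cdt1 and Mcm5, and the median of the members was -0.11, beside 0.01 over all genes tested. None passed a fold of 2 in the lower direction, as 2.59% of all genes tested did. Without Hira-null day 0 replicate 2 only Cdc6 was called, and without Hira-null day 0 replicate 1 or without WT day 0 replicate 1 the count was 2, Cdc6 and Mcm10.

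Cdc6 had the largest difference at day 0, with 13.2 and 13.8 FPKM in Hira-null and 25.8 and 28.1 FPKM in WT (-0.95 ± 0.11, 1.93-fold lower, adjusted p = 0.00028). Mcm10 was at 48.1 and 44.6 FPKM in Hira-null and 63.0 and 61.7 FPKM in WT (-0.42 ± 0.08, adjusted p = 0.0045). Cdt1 was at 84.4 and 82.5 FPKM in Hira-null and 110.1 and 101.7 FPKM in WT (-0.34 ± 0.09, adjusted p = 0.019). Those 3 genes had both WT libraries above both Hira-null libraries, as did Mcm5 and, without passing the test, Mcm6 and Gins1. The share of all genes tested with such an order was not counted.

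Mcm5 alone of the ring subunits passed the test at day 0, with 176.2 and 177.3 FPKM in Hira-null and 215.6 and 202.5 FPKM in WT (-0.24 ± 0.08, adjusted p = 0.032). Mcm2 had 189.7 and 175.4 FPKM in Hira-null and 158.6 and 165.2 FPKM in WT (0.17 ± 0.08, adjusted p = 0.13), and Mcm7 had 181.5 and 181.4 FPKM in Hira-null and 168.9 and 154.3 FPKM in WT (0.17 ± 0.08, adjusted p = 0.14). Both stood higher in each Hira-null library than in either WT library without passing. Mcm3, Mcm4, Mcm6 and Gins1 had log2 fold changes from -0.11 to 0.06 and adjusted p from 0.19 to 0.99. On the deposited scaling the summed ring had the same mean at day 0, 998.6 FPKM in Hira-null and 998.6 FPKM in WT (SD 2.96 and 16.0, n = 2 each). The sum was not tested and depends on the scaling. Rescaling to the total of fragments would divide it by 1.0039 and 1.0005 in Hira-null and by 1.0396 and 1.0341 in WT. At day 15 the mean sums were 292.5 ± 15.2 FPKM in Hira-null and 370.8 ± 19.2 FPKM in WT (SD, n = 2 each), a ratio of 0.789.

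The genotype effect was more negative at day 15 than at day 0 for 4 members, where 17.7% of all genes tested had a more negative and 17.5% a more positive effect at day 15. They were Cdt1 (difference of the log2 fold changes -0.72 ± 0.13, adjusted p = 0.0043), Mcm6 (-0.51 ± 0.09, adjusted p = 0.0028), Mcm4 (-0.49 ± 0.10, adjusted p = 0.0067) and Mcm5 (-0.33 ± 0.11, adjusted p = 0.043). The call of Mcm5 was lost without any 1 library other than WT day 15 replicate 2 and Hira-null day 15 replicate 2, with adjusted p from 0.052 to 0.14. For Cdc6, which was lower in Hira-null at both days, the effects differed by 0.14 ± 0.16 (adjusted p = 0.53), and for Mcm10 by 0.09 ± 0.12 (adjusted p = 0.59). The median of the members was -0.31, beside 0.02 over all genes tested. Of 25 mitosis genes, 18 had a more negative effect at day 15 and 0 a more positive one (median -0.44). That mitosis count was smaller in every fit with 1 library left out. Of 31 replication fork genes, 11 had a more negative and 2 a more positive effect (median -0.34). The genotype and day comparisons share libraries, so they are not independent of each other.

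The subunits assemble in equal number in the ring, but their messages were not at equal levels per length. In Hira-null at day 15 the means ran from 66.8 FPKM for Mcm7 through Mcm3, Mcm2, Mcm6 and Mcm5 to 34.8 FPKM for Mcm4, where Mcm3 and Mcm2 overlapped and so did Mcm6 and Mcm5. In WT at day 15 they ran from 74.4 FPKM for Mcm7 through Mcm3, Mcm6, Mcm5 and Mcm2 to 47.1 FPKM for Mcm4, with overlap of Mcm3 and Mcm6 and of Mcm5 and Mcm2. In Hira-null at day 0 the order was Mcm3, Mcm2, Mcm7, Mcm5, Mcm6 and Mcm4, from 187.2 to 105.3 FPKM, with overlap of Mcm3 and Mcm2 and of Mcm2 and Mcm7. In WT at day 0 it was Mcm5, Mcm3, Mcm6, Mcm2, Mcm7 and Mcm4, from 209.0 to 101.0 FPKM, with overlap of Mcm2 and Mcm7. Mcm4 was lowest in all 4 groups, and the highest mean was 1.92 times the lowest in Hira-null and 1.58 times in WT at day 15, and 1.78 times in Hira-null and 2.07 times in WT at day 0.

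A ratio within a library does not depend on how libraries were scaled. Cdt1 stood at 41.3% and 43.9% of the mean FPKM of Mcm2 to Mcm7 in Hira-null at day 15, against 74.5% and 69.5% in WT, and at 50.6% and 49.7% in Hira-null at day 0, against 65.4% and 61.8% in WT. Cdc6 stood at 11.4% and 10.7% in Hira-null at day 15, against 17.2% and 15.9% in WT, and at 7.93% and 8.31% in Hira-null at day 0, against 15.4% and 17.1% in WT. Both loaders were thus low relative to the ring in each Hira-null library at both days. Mcm10 was lower relative to the ring at day 0, with 28.8% and 26.8% in Hira-null and 37.5% in both WT libraries, and overlapped at day 15, with 25.0% and 25.8% in Hira-null and 25.2% and 26.1% in WT. Gins1 was at 25.2% and 23.9% in Hira-null and 16.7% and 21.3% in WT at day 15.

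**Figure D3:**
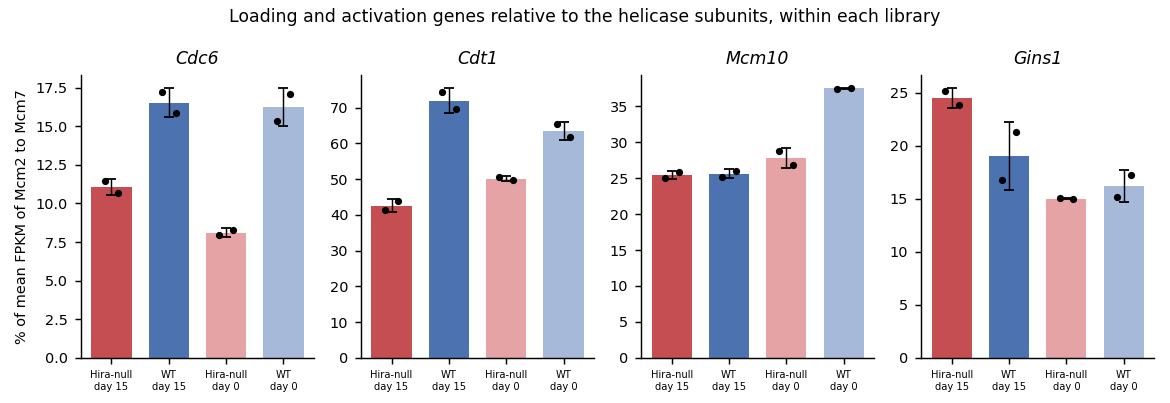
FPKM of Cdc6, Cdt1, Mcm10 and Gins1 as a percentage of the mean FPKM of Mcm2 to Mcm7 in the same library, by group, with Hira-null left of WT at each day. Bars are means of 2 libraries, error bars SD and points single libraries; Cdt1 is at 41.3% and 43.9% in Hira-null and 74.5% and 69.5% in WT at day 15.

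Gmnn, which encodes the inhibitor of CDT1, did not pass the test between genotypes, with 29.5 and 26.9 FPKM in Hira-null and 28.4 and 31.2 FPKM in WT at day 15 (log2 fold change -0.08, adjusted p = 0.55). The ratio of Cdt1 to Gmnn was 0.658 and 0.826 in Hira-null and 1.68 and 1.33 in WT at day 15. At day 0 it was 1.23 and 1.11 in Hira-null and 1.46 and 1.47 in WT. At both days every WT library lay above both Hira-null libraries in this ratio of messages.

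The rest of the pathway was described by lists of its genes, by role. Their counts at day 15 stand beside 18.8% of all genes tested called lower in Hira-null and 18.6% higher. Of the 6 ORC genes only Orc6 was called at day 15, at 20.8 and 15.8 FPKM in Hira-null and 34.8 and 35.9 FPKM in WT (-0.93, adjusted p = 0.0008), and the list median was -0.19 (2 genes without Hira-null day 15 replicate 1). Of 10 licensing regulators and MCM partners, 4 were lower in Hira-null and none higher (2 lower without WT day 15 replicate 2). They were Kat7, an acetyltransferase of histone H4 that aids licensing (-0.90, adjusted p = 6.0e-05), Dtl, which guides CDT1 to destruction (-0.64, adjusted p = 0.0018), Cul4a, the scaffold of the ligase that does so (-0.52, adjusted p = 0.0043), and Mcm9, a helicase of DNA repair (-0.45, adjusted p = 0.035).

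Of 13 genes of helicase activation and origin firing, 8 were lower in Hira-null at day 15 and none was higher, with a median of -0.42 (5 without WT day 15 replicate 1). The GINS subunits other than Gins1 were among them, and Gins2 had 11.0 and 18.0 FPKM in Hira-null and 30.5 and 32.6 FPKM in WT (-1.10, adjusted p = 0.0018). Gins3 (-0.90, adjusted p = 0.0012) and Gins4 (-0.61, adjusted p = 0.00063) were also lower, while Gins1 was not called. Wdhd1, which ties the polymerase to the helicase, had the smallest called difference (-0.31, adjusted p = 0.028).

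Of 31 genes of the replication fork, 21 were lower in Hira-null at day 15 and 2 were higher, with a median of -0.46, but the lower count was 11 without WT day 15 replicate 1 and 12 without WT day 15 replicate 2, and the higher count was 1 without either. Asf1b, a histone chaperone of the fork, had 5.12 and 4.47 FPKM in Hira-null and 13.5 and 14.5 FPKM in WT (-1.38, adjusted p = 9.6e-05). The genes that were higher, Pole4 (0.59, adjusted p = 0.0026) and Pole3 (0.53, adjusted p = 0.0063), encode the histone-fold subunits of DNA polymerase epsilon. Of 8 genes of nucleotide supply, 3 were lower, Tk1 (-1.12, adjusted p = 0.00027), Dctpp1 (-0.35, adjusted p = 0.049) and Rrm2 (-0.29, adjusted p = 0.017), and the count was 1 without either WT day 15 library. Of 25 mitosis genes, 10 were lower and none higher (5 without WT day 15 replicate 2), from Aurkb (-1.12, adjusted p = 4.9e-05) to Ccna2 (-0.31, adjusted p = 0.0084), with a median of -0.10.

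**Figure D4:**
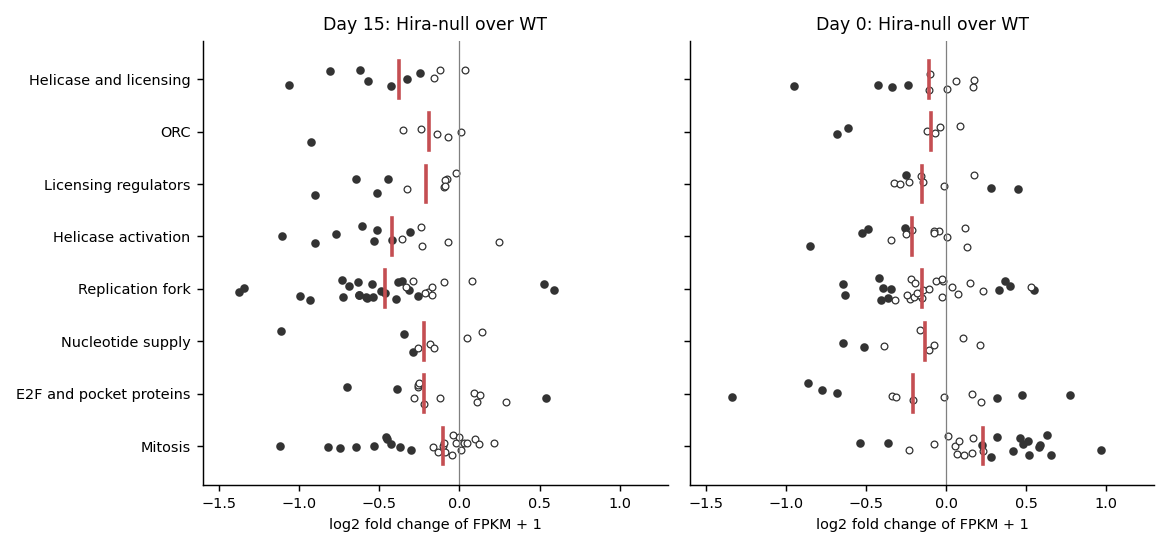
Log2 fold change of Hira-null over WT for the genes of 8 lists, at day 15 on the left and at day 0 on the right. Each point is a gene, filled where the adjusted p was 0.05 or less, and red lines are list medians; at day 15 the medians of the members and of the mitosis genes are -0.38 and -0.10, and at day 0 they are -0.11 and 0.23.

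The same lists were compared at day 0, where 19.4% of all genes tested were called lower in Hira-null and 20.8% higher. Of the mitosis genes, 13 were higher in Hira-null and 2 lower, with a median of 0.23, from Cenpa, which encodes the histone of centromeres (0.97, adjusted p = 0.0003), to Birc5 (-0.53, adjusted p = 0.0011) and Top2a (-0.36, adjusted p = 0.0023). None of the licensing members was called higher there. Of the ORC genes, Orc6 (-0.68, adjusted p = 0.0028) and Orc2 (-0.61, adjusted p = 0.014) were lower, and the count was 1 without Hira-null day 0 replicate 1 or WT day 0 replicate 2. Of the firing genes, 4 were lower and none higher, from Gins4 (-0.85, adjusted p = 9.6e-05) to Wdhd1 (-0.26, adjusted p = 0.047), but 1 without either Hira-null day 0 library or WT day 0 replicate 2, and 2 without either WT day 15 library. Fork genes went both ways, with 7 lower (4 without either Hira-null day 0 library) and 4 higher (0 without Hira-null day 0 replicate 2 or WT day 0 replicate 2, 1 without Hira-null day 0 replicate 1 and 2 without WT day 0 replicate 1), from Rpa1 (-0.65, adjusted p = 0.00027) to Pold1 (0.55, adjusted p = 0.025).

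The E2F and pocket protein genes, which encode regulators of the S phase genes, were mixed. The shares of all genes tested given above for each day stand beside these counts too. At day 15, Tfdp1 (-0.70, adjusted p = 0.001) and E2f4 (-0.39, adjusted p = 0.016) were lower in Hira-null and Rb1 was higher (0.54, adjusted p = 0.011), of 13 genes with a median of -0.22. No gene of the list was higher without either WT day 15 library or Hira-null day 15 replicate 1, and 1 was lower without WT day 15 replicate 1 or Hira-null day 15 replicate 1. At day 0, 4 were lower and 3 higher, or 1 higher without WT day 0 replicate 1 or either Hira-null day 0 library. E2f3 had 4.81 and 4.80 FPKM in Hira-null and 14.6 and 12.8 FPKM in WT (-1.33, adjusted p = 6.4e-05), and E2f1 had 27.9 and 24.8 FPKM in Hira-null and 15.3 and 14.7 FPKM in WT (0.77, adjusted p = 0.0023). Both encode activators of S phase genes, and they moved in opposite directions.

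Across days the fall of the members was accompanied by that of most replication genes, where 36.4% of all genes tested were called lower in Hira-null and 33.4% in WT. In Hira-null 29 of 31 fork genes, 12 of 13 firing genes, 8 of 8 nucleotide genes and 22 of 25 mitosis genes were lower at day 15 than at day 0, and in WT the counts were 29, 9, 8 and 21. Of the ORC genes, 4 of 6 were lower in Hira-null and 5 in WT, and Orc4 was higher at day 15 in both (0.56 in Hira-null, adjusted p = 0.0076, and 0.62 in WT, adjusted p = 0.0047), calls lost without Hira-null day 15 replicate 1 in the one and WT day 15 replicate 2 in the other. Called higher at day 15 were 1 firing gene and 1 mitosis gene in Hira-null, and 3 mitosis genes in WT. Of all genes tested, 37.5% were higher in Hira-null and 36.1% in WT. Mki67 of the mitosis list rose in Hira-null from 37.2 and 35.7 to 47.5 and 45.6 FPKM. In WT it rose from 27.6 and 24.1 to 46.8 and 47.9 FPKM. Of 10 licensing regulators, 7 fell and 1 rose in Hira-null (8 and 1 in WT). Of 13 E2F and pocket protein genes, 6 fell and 4 rose in Hira-null (5 and 2 in WT). All 18 pluripotency genes were lower at day 15 in Hira-null and 17 of 18 in WT. The median difference was -1.30 for fork genes and -1.62 for mitosis genes in Hira-null, beside -1.74 for the members, and -1.005 and -1.004 in WT, beside -1.39 for the members.

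The genes outside the members whose profile over the 8 libraries came closest to the mean of Mcm2 to Mcm7, by the root mean square difference of centred log2(FPKM + 1), were Eif2d (0.0523), Hmces (0.0789), Eif3d (0.0799), Pdk1 (0.080) and Cct7 (0.0824). Eif2d, a translation factor, was at 17.8 and 20.7 FPKM in Hira-null and 24.8 and 25.2 FPKM in WT at day 15, and at 67.0 and 69.7 FPKM in Hira-null and 69.5 and 64.3 FPKM in WT at day 0. Eif3d is also a translation factor, Hmces binds damaged DNA, Pdk1 encodes a kinase of pyruvate metabolism and Cct7 a subunit of a chaperonin. On this measure the ring subunits themselves lay from 0.053 for Mcm3 to 0.222 for Mcm5, and Cdc6 lay farthest of the members at 0.411. Each ring subunit is part of the mean it was measured against, which shortens its distance. Among the 14337 genes tested Mcm3 ranked 2, Mcm7 173, Mcm5 345 and Cdc6 1791, so many genes outside the members lay closer than some ring subunits.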

How the data were processed

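Messenger RNA of 8 libraries was captured and made into stranded paired-end libraries. The authors aligned the reads to mm9 with Bowtie (0.12.2 in the submitters' processing notes, which also name DESeq2 1.6.3) and deposited 1 table of FPKM values per library. The sources used here do not say how genes were counted or if strand was used. Their own comparison tables (means, log2 fold changes, p-values) were not used. FPKM values were read as whole multiples of 1 step per gene. A step was kept only where all positive values of a gene came out whole, so their being whole is no evidence for the step. The 16866 genes above 0 in 4 or more libraries all had a step and gave the fragments per library. Their totals were 94.6 to 104.0% of the library sizes behind the FPKM scaling. Those sizes were inferred from the values by a search near the totals, and no source used here states them.

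The test used limma 3.58.1 under R 4.3.3 on log2(FPKM + 1) of genes that reached FPKM 1 in 2 or more libraries. It had 4 group means over all 8 libraries, a weight for each day (0.9684 for day 15, 1.033 for day 0) and moderated variances with a trend, and p-values were adjusted by the Benjamini-Hochberg method at 0.05. There were 4 residual and 4.703 prior degrees of freedom. Counting error of a member was at most 9.25% in a library and covers counting alone. Between replicates, chi-square over degrees of freedom across all genes was 2.90 to 6.15. The fit was also run on data simulated from its own variances, which cannot show how well it suits these libraries. Alternatives were a pseudocount of 0.1, no filter, 2 other scalings, no weights, a fit of 4 libraries, a replicate block and leaving out each library. Positions come from NCBIM37. The members and lists were chosen with earlier results of these data known. Named list genes were taken from those past the test with the highest and lowest fold change and those against the direction of most of a list. Not every such gene is named. Dtl, Cul4a, Gins3, Orc2, Dctpp1, E2f4, Orc4, Gmnn, Myh6, Myl7, Tnnt2, Nppa, Fabp7, Pecam1, Stmn2, Pou5f1 and Nanog were named after their values were seen. So were Mki67 and Foxa2.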

Additional observations from a re-analysis of the deposited data

Results flagged for a closer look

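The genotype effect differed between the days by a test of the difference itself for 4 members. Each was more negative at day 15 than at day 0, as was that of 18 of 25 mitosis genes. For Cdt1 the log2 fold change of Hira-null over WT was -1.06 at day 15 and -0.34 at day 0, a difference of -0.72. For Mcm6 it was -0.62 and -0.11, a difference of -0.51, and for Mcm4 -0.43 and 0.06, a difference of -0.49. For Mcm5 it was -0.57 and -0.24, a difference of -0.33 whose call was lost without any 1 of 6 of the 8 libraries.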

How the results depend on the processing

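Over 14 to 15 alternatives for each of the 50 differences of single members, 708 of 740 values kept their side of the threshold. Of the others, 25 lost their call and 7 gained one. No value called in either fit changed direction. A change of direction where neither fit gave a call was counted as kept. With 1 library left out, the genes called ran from 3706 to 5613 at day 0, 2603 to 5301 at day 15, 8278 to 10051 between days in WT, 9615 to 10721 between days in Hira-null and 2893 to 4682 for the difference of effects, and members lower ran from 1 to 4, 5 to 7, 10 to 10, 10 to 10 and 3 to 6. Rescaling to the total of fragments, chosen after seeing the data, moved the median day difference of all genes in WT to 0.144 and in Hira-null to 0.073, and left all 10 members lower at day 15 in both. Under it Mcm2 was higher in Hira-null at day 0, the 1 member called higher (0.22, adjusted p = 0.0498), Mcm5 was not called there (adjusted p = 0.062), and 7 members had a more negative effect at day 15. Replicate numbers did not pair the libraries (correlations from -0.0967 to 0.0455). With the replicate block, 6 members were lower at day 15, without Mcm3 (adjusted p = 0.059), 3 had a more negative effect at day 15, without Mcm5 (0.053), and 4668 genes were called at day 15. In a fit of the 4 libraries of day 15 alone, Mcm3 (0.072) and Mcm10 (0.058) were not called, and without a filter on low values the Mcm5 difference of effects was not (0.055). The cause of these changes was not tested. With 2 libraries a group, differences near the size of that of Mcm3 at day 15 are at the limit of the design.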
